A study of Zea mays with 12 samples.

Results

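The MADS-box genes form a family of plant transcription factors that bind DNA as dimers, and many of them set the identity of flower organs. In the ABC model and its extensions, AP1-type genes act in floral meristems, B-class genes in petals and stamens, C-class genes in stamens and carpels and D-class genes in ovules. E-class (SEPALLATA-type) genes are partners of the others. Described here is the replication timing of 8 maize MADS-box genes in root tip cells: zap1, zmm16, zmm2, MADS35, zag2, zmm31, zmm6 and MADS62. They were chosen by their own timing classes, so that early, mid and late S phase were all represented, from 32 MADS-box genes found by name among 33681 protein-coding genes on the 10 chromosomes. Their classes and surroundings are therefore a description and carry no test.

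Timing was mapped by Repli-seq, which sequences the DNA made during a short label in nuclei sorted for their place in S phase. All samples came from seedlings of the inbred line B73, 3 days old, whose roots took up the thymidine analogue EdU (25 µM, 20 min) and were moved to 100 µM thymidine before the terminal 1 mm was cut. Early S, mid S and late S nuclei gave immunoprecipitated DNA, and G1 nuclei gave total DNA as the reference. Each of these 4 groups had 3 biological replicates. The deposited values were a single map of segments in 10 kb windows without library columns. A segment's class is ES (taken as early S), MS (mid S), LS (late S) or a mixture of neighbouring stages, ESMS or MSLS. No count or ratio accompanies a class, so the depth and the spread between replicates are unknown. The map holds DNA replication timing and no expression values.

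The 8 genes lay in the 3 single-stage classes, with 4 in ES, 2 in MS and 2 in LS. Among the 33146 protein-coding genes with a class, ES held 54.8%, ESMS 11.8%, MS 24.3%, MSLS 4.22% and LS 4.86%. Since the genes were picked to cover the classes, nothing can be read from their shares. Each of the 8 genes lay along its whole annotated length in a single class. The class was that of the gene midpoint in every case, and segment coordinates below are those of the deposited map, for which the sources used here name no build.

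**Figure D1:**
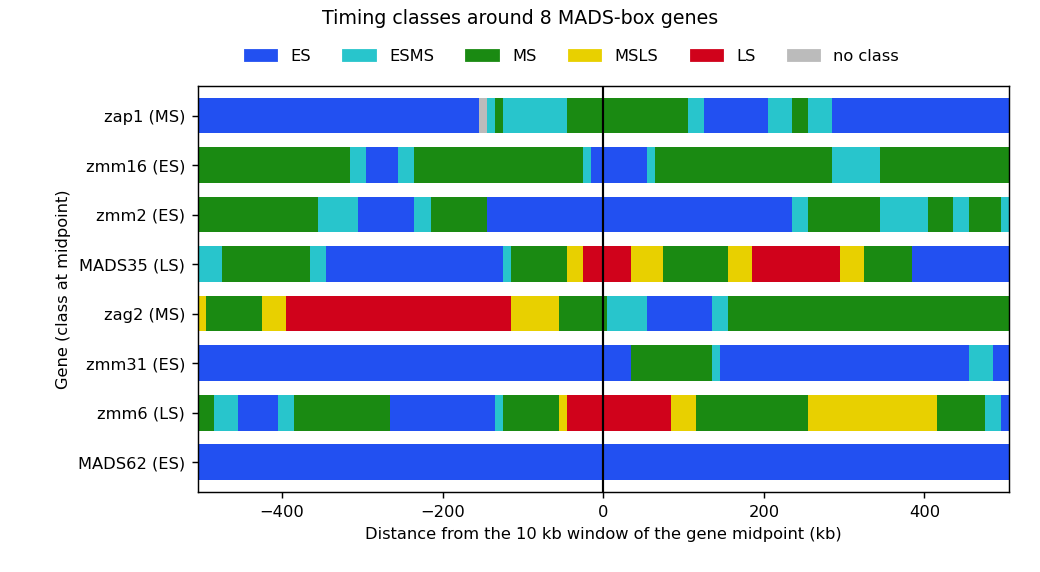
Timing class of each 10 kb window within 500 kb of the midpoint of the 8 MADS-box genes (horizontal axis, distance in kb; 1 strip per gene, coloured by class; vertical line, the window of the midpoint). MADS62 has ES in all windows, while zmm6 and MADS35 lie in LS segments of 130 kb and 60 kb. MADS35 has ES stretches on both sides, and zmm6 has them on the lower side, with only the last 10 kb window in ES on the higher side.

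zap1, an AP1-type gene, was a mid-replicating gene in a mostly early-replicating chromosome end. Its MS segment spanned 150 kb of chromosome 2, from 242240001 to 242390000, at 99.4% of the way to the end of the last segment, with ESMS on both sides. ES took 64.4% of the windows within 500 kb and MS 17.8%. Of the 33 other protein-coding genes in that range, 26 were in ES, 5 in ESMS and 2 in MS. The ES share of its neighbours was 78.8%, where the median over all 8056 MS genes was 28.6% and 454 of them had a higher share. The next gene on the lower side, ACK2, lay 48.2 kb away in ESMS. The nearest ES sequence was 128 kb from its midpoint and the nearest LS sequence 1388 kb.

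zmm16, a B-class gene of the PISTILLATA type that the gene table also lists as sts1, was in a small early segment with mid-replicating sequence next to it. It lay in a 70 kb ES segment on chromosome 3 from 176060001 to 176130000, flanked by 10 kb of ESMS on both sides and then by MS segments of 210 kb and 220 kb. MS took 77.2% of the windows within 500 kb, ES 10.9% and ESMS 11.9%. Only 484 of 18173 ES genes had a lower ES share of windows around them, against a median of 64.4%. In the wider range of 1000 kb on both sides ES took 28.4% of windows. The segment held 5 protein-coding genes, and the MS segments on either side held 1 each. The gene midpoint was 16.1 kb from a class boundary.

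The members grouped by name as C-class, of the AGAMOUS type, stood at opposite ends of S phase, a contrast fixed by the choice. The name zmm2 as spelled belongs to a gene on chromosome 5, and in capitals it is also a synonym of MADS35 on chromosome 8, which the gene table lists as AGAMOUS too. Both were placed in the C-class group by this name, and for the chromosome 5 gene nothing else in the gene table gives that role. Values for the name zmm2 are those of the chromosome 5 gene. zmm2 lay in a 380 kb ES segment from 180400001 to 180780000, close to the median of 350 kb for ES genes, and 142 kb from the nearest boundary. That segment held only 2 protein-coding genes. Within 500 kb there were 12 others, of which 3 were in ES, 5 in ESMS and 4 in MS. ES genes had a median of 25 such neighbours, and 1072 of the 18173 had fewer than zmm2. ES took 44.6% of the windows around zmm2, MS 37.6% and ESMS 17.8%, and the nearest LS sequence was 7998 kb away. In the narrower range of 250 kb on both sides ES took 78.4%.

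MADS35 was the only protein-coding gene in a 60 kb LS segment of chromosome 8, from 23580001 to 23640000. Its midpoint was 20.7 kb from the boundary. Classes passed through MSLS and MS on both sides, and ES sequence came within 121 kb. In the 500 kb on both sides ES took 33.7% of windows, MS 31.7%, LS 16.8% and MSLS 11.9%. A second LS stretch of 110 kb accounted for the remainder of the LS windows. None of the 18 protein-coding genes in this range was in LS, and 11 were in ES. Over all 1611 LS genes the median ES share of windows was 0, and 7 genes had a higher share than MADS35. Another C-class gene of the list, ZAG1, was in MSLS, in a 120 kb segment of chromosome 6 with MS on both sides.

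zag2, a D-class gene, sat between a late and a short early stretch, with MS the most common class around it. Its 60 kb MS segment on chromosome 3, from 138790001 to 138850000, held no other protein-coding gene. On the lower side came 60 kb of MSLS and 280 kb of LS, and on the higher side 50 kb of ESMS and 80 kb of ES. Beyond this ES stretch came 20 kb of ESMS and then MS to the end of the range. Of 17 neighbouring genes, 10 were in MS, 3 in ESMS, 2 in ES, 1 in MSLS and 1 in LS. The LS and ES stretches were 111 kb and 58.9 kb from its midpoint. MS took 47.5% of windows within 500 kb, LS 27.7% and ES 7.92%, and all 5 classes occurred there. The midpoint was 8.86 kb from the ESMS boundary, the shortest distance among the 8 genes. Moving the gene by 10 kb or 20 kb towards higher coordinates placed it in ESMS.

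The E-class genes zmm31 and zmm6 differed in class and in setting. zmm31 lay near the start of chromosome 5 in a 910 kb ES segment (6500001 to 7410000) with 51 protein-coding genes. ES took 86.1% of windows within 500 kb, and 52 of 53 neighbouring genes were in ES. With 53 neighbours it stood in a gene-dense place: 512 of 18173 ES genes had more. The sole neighbour outside ES was another MADS-box gene, MADS15, 52.7 kb away. MADS15 was the only protein-coding gene of a 100 kb MS segment that directly followed the ES segment of zmm31, from 7410001 to 7510000. All of the 50 other genes within 500 kb of MADS15 were in ES, a higher share than for 8025 of the 8056 MS genes.

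zmm6, which the gene table also lists as zmm7, was the only protein-coding gene of a 130 kb LS segment of chromosome 1, from 198310001 to 198440000. Its midpoint was 47.0 kb from the boundary. MSLS segments of 10 kb and 30 kb flanked it, followed by MS segments of 70 kb and 140 kb. Within 500 kb MS took 40.6% of windows, MSLS 19.8%, ES 18.8% and LS 12.9%. LS windows in this range were those of its own segment. Of the 19 ES windows all but the outermost on the higher side lay on the lower side. Of 14 neighbouring genes, 9 were in ES, 1 in ESMS, 4 in MS and none in LS.

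zmm6 and MADS35 ranked near the same extreme among LS genes. The ES share of neighbouring genes was 64.3% for zmm6 and 61.1% for MADS35, where the median of LS genes was 0 and the upper quartile 14.3%. Of 1611 LS genes, 14 exceeded zmm6 and 18 exceeded MADS35 in this share. Being the only gene of an LS segment was less rare, since 417 LS genes (25.9%) were. Having no other LS gene within 500 kb held for 239 (14.8%). Both segments were short, against a median segment of 330 kb for LS genes, with 282 genes in shorter segments than zmm6 and 81 in shorter ones than MADS35. These ranks describe genes that were selected on class, and they were not tested. The rule of the choice also used segment length and the classes within 500 kb.

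MADS62, for which no role is given here, lay in the middle of the longest segment among the 8 genes. This ES segment on chromosome 2 spanned 1300 kb, from 239290001 to 240590000, and held 48 protein-coding genes. All windows within 500 kb were ES, as were all 41 neighbouring genes. The segment ended 630 kb away at a 20 kb gap without a class, beyond which ES resumed, and this distance was greater than for 17105 of 18173 ES genes. The nearest MS sequence was 670 kb away. It lay on the same chromosome end as zap1, whose surroundings began beyond those of MADS62.

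**Figure D2:**
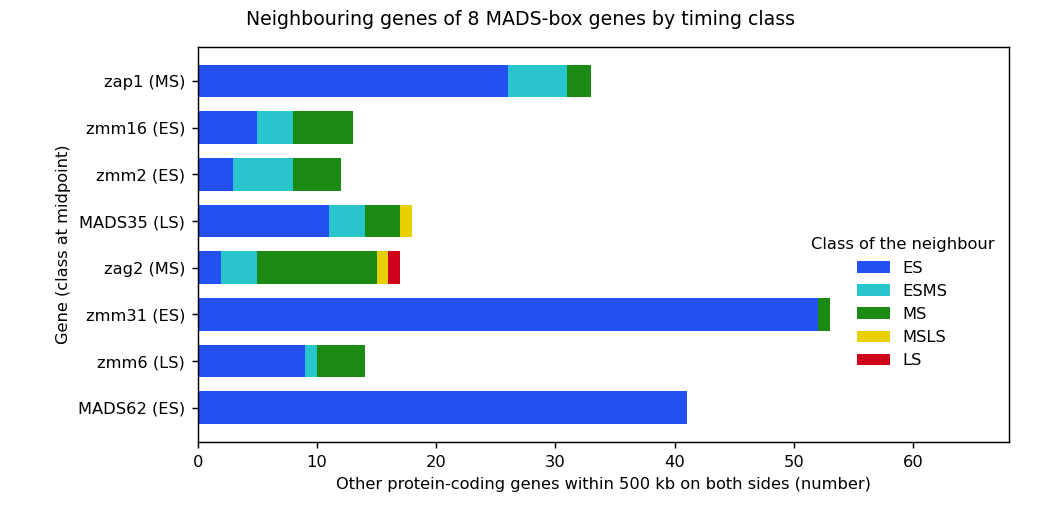
Number of other protein-coding genes within 500 kb on both sides of each of the 8 MADS-box genes (horizontal axis), coloured by the class of the neighbour (1 bar per gene, with the gene's own class in brackets). zmm31 and MADS62 have 53 and 41 neighbours, nearly all in ES, while zmm6 and MADS35, themselves in LS, have 9 of 14 and 11 of 18 neighbours in ES.

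Gene length, which took no part in the choice, varied from 1209 bp in MADS62 to 11154 bp in zmm2. The LS genes zmm6 (7876 bp) and MADS35 (8823 bp) were longer than 1441 and 1463 of the 1611 LS genes, whose median was 1868 bp. zap1 (9284 bp) and zag2 (5767 bp) exceeded the MS median of 2653 bp, and zmm31 (6101 bp) exceeded the ES median of 3351 bp. zmm16 (2388 bp) and MADS62 were shorter than the ES median. Over the 32 MADS-box genes the median length was 6919 bp, against 3056 bp over all classified protein-coding genes, and length was not tested.

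**Figure D3:**
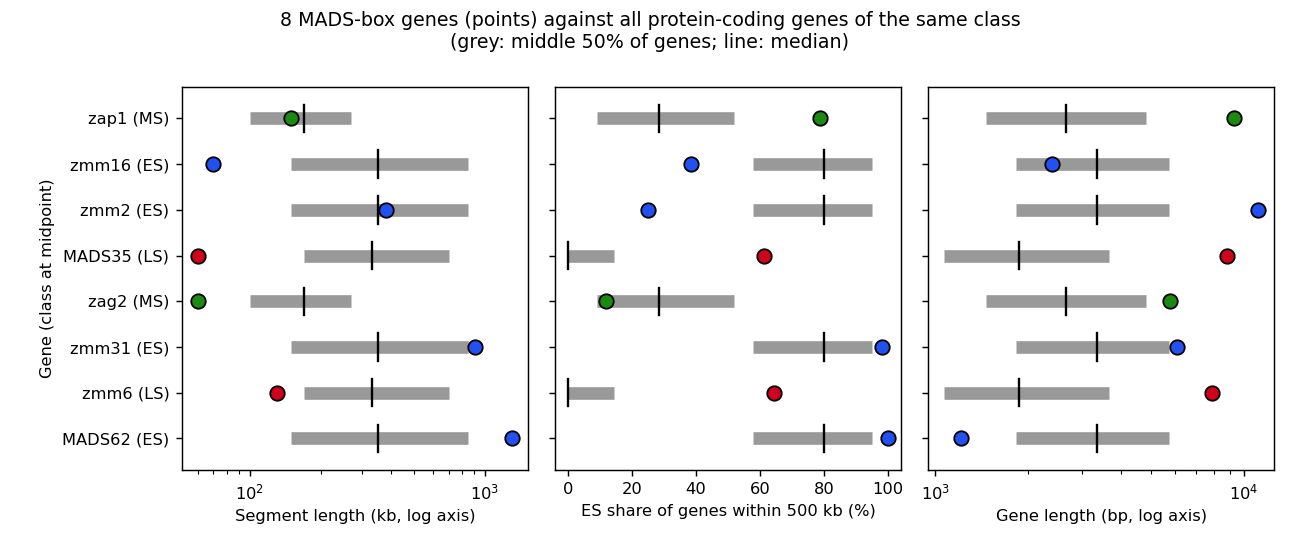
Segment length (kb), ES share of genes within 500 kb (percent) and gene length (bp) of the 8 MADS-box genes (points, coloured by class), with the median (line) and middle 50% (grey) of all protein-coding genes of the same class. The LS genes zmm6 and MADS35 lie below the grey range for segment length and above it for the ES share of neighbours and for gene length.

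The strips of the 8 genes were compared pair by pair, counting windows with the same class at the same distance in either orientation. Over the 28 pairs, between 7.92% and 86.1% of the windows had the same class. MADS62 and zmm31 were the most alike at 86.1%, followed by zmm31 and zap1 at 66.3%, although zap1 is in MS. The least alike included zap1 and zag2, both in MS, at 7.92%, and MADS62 and zag2 with the same value. Since MADS62 has ES in all windows, its likeness to another gene only restates the ES share of windows around that gene. zmm6 and MADS35, both in LS, had 35.6% in common. Genes of 1 class therefore included both very like and very unlike surroundings.

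Among the other list genes, the surroundings most like those of each member were found for MADS70 with MADS62 (100% of windows) and zmm14 with zmm31 (87.1%). MADS15 had the same class as zap1 in 71.3% of windows. MADS69, in MS, matched the ES gene zmm16 in 61.4%. MADS36 matched zmm2 in 54.5% and MADS71 matched zag2 in 53.5%. For the LS genes the best match was lower, at 44.6% for zmm6 with zmm24 and 46.5% for MADS35 with MADS42, both of them in MS. The list held no LS gene other than zmm6 and MADS35 to compare them with. Among named genes of other chromosomes, 116 matched all windows of MADS62. The closest to zmm6 was rps27 (63.4%), itself in ES, and to MADS35 DML3 (64.4%), itself in MS. Closest to zag2 was aic1 (77.2%) and to zap1 RR6 (82.2%), both in MS. To zmm2 it was PP2C24 (75.2%) and to zmm31 MUB6 (91.1%), both in ES. bZIP89, in MS, and PLTZ8, in ESMS, were closest to zmm16 (81.2% each). Likeness was ranked over 2231 to 2468 named genes per member, in 1 map, and has no replicate check.

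The 24 other MADS-box genes were placed in the same way. In ES were MADS36, MADS70, MADS4 and zmm14, and in ESMS MADS7 and the AGL6-type gene bde1. MS held 15 of the 24: the E-class genes zmm24 and zmm27, the B-class genes si1 and zmm29, the B-sister gene zmm17, the AGL6-type ZAG5, zmm19 (also listed as tunicate1), MADS69, MADS15, MADS67, MADS18, MADS42, MADS10, MADS71 and MADS34. ZAG1, MADS47 and MADS76 were in MSLS. No list gene other than zmm6 and MADS35 was in LS. The 24 are what remained after members were chosen by class, so shares are given for all 32 list genes. LS held 2 (6.25%), against 4.86% of all classified protein-coding genes, and MSLS 3 (9.38%), against 4.22%. MS held 17 (53.1%), against 24.3%, ESMS 2 (6.25%), against 11.8%, and ES 8 (25.0%), against 54.8%. These shares were not tested. zmm29 and MADS18 lay in the same 320 kb MS segment of chromosome 8.

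By functional group, the list genes other than the members were placed as follows. Their classes are also shaped by the choice, which took 4 of 8 ES, 2 of 17 MS and 2 of 2 LS list genes. Of the E-class genes, zmm14 was in ES and zmm24 and zmm27 in MS, beside the members zmm31 (ES) and zmm6 (LS). The B-class genes zmm29 and si1 were both in MS, beside the member zmm16 (ES). Besides the members zmm2 and MADS35, both placed in the C-class group by the name zmm2, ZAG1 (MSLS) was the only C-class gene. The contrast in class between those members was fixed by the choice. The AGL6-type genes bde1 and ZAG5 were in ESMS and MS. Of 29 names searched for these groups, 18 were matched, so the groups are incomplete. The gene table lists MADS15, MADS67 and MADS18 under m numbers that correspond to zmm names in the AP1-type and B-class groups. If they are read so, zap1, MADS15 and MADS67 were all in MS, as was MADS18.

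**Figure D4:**
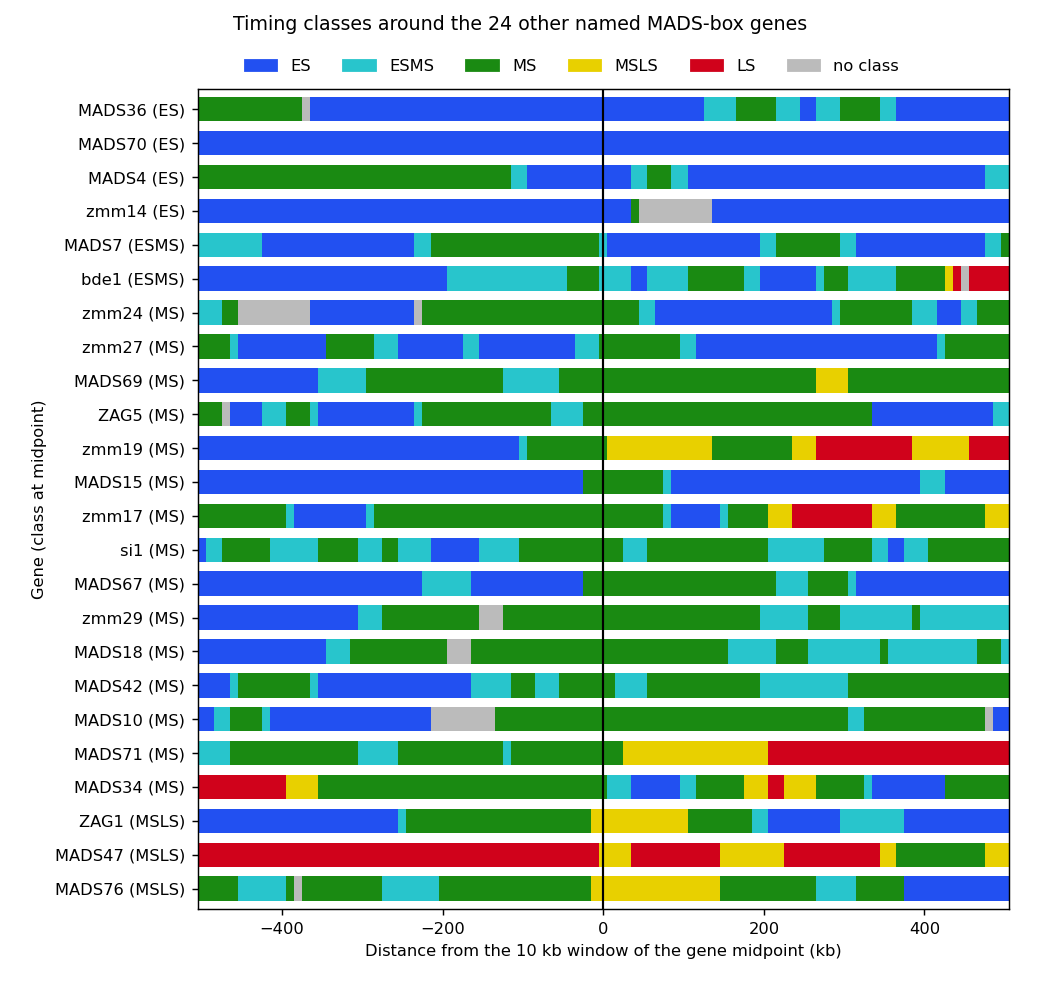
Timing class of each 10 kb window within 500 kb of the midpoint of the 24 other MADS-box genes (horizontal axis, distance in kb; 1 strip per gene, ordered and labelled by class at the midpoint). MADS70 has ES in every window, and MADS15, zmm19, zmm27 and MADS67 lie in MS segments with long ES stretches beside them, for zmm19 on the lower side only.

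The surroundings of all 32 list genes were set beside those of all classified genes. The median ES share of neighbouring genes was 60% around the 32 genes and 57.9% around all 33146 classified genes. ES genes were the majority of neighbours for 18 of 32 genes (56.25%) and for 55.1% of all genes. Of the 32 genes themselves, 8 (25.0%) were in ES, against 54.8% of all genes. ES took 35.6% of windows around the median list gene and 39.6% around the median of all genes. The 17 MS genes of the list had a median ES share of neighbours of 47.4%, against 28.6% for all MS genes. The list was drawn up with its low ES count already known, and no test was made of these differences.

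The list was also split by chromosome part. Of the 17 list genes in the outer 20% at either chromosome end, 5 were in ES (29.4%), against 70.5% of all genes there. Of the 15 in the middle, 3 were in ES (20.0%), against 33.9%. Being the only protein-coding gene of the segment held for 4 of the 17 MS genes of the list (23.5%), zag2 among them, and for 19.9% of all MS genes.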

How the data were processed

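The authors' deposited file is a segmentation of the maize genome in 10 kb windows, per the file headers. Its values are class names and coordinates (other than counts, ratios or signal), for all libraries together. Trimmomatic 0.39, Bowtie2 2.5.1 and SAMtools 1.9 are named in the submitters' processing notes. The sources used here do not give the segmentation method, the pooling of replicates or the build.

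Genes came from the RefSeq table of assembly Zm-B73-REFERENCE-NAM-5.0, and members were matched by symbol or synonym as spelled. Correlation of gene counts with ES was highest within 10 kb of no offset on 10 of 10 chromosomes and, in 20 Mb around each member, for 8 of 8 genes. No gene lay beyond the last segment. Gene coordinates are not printed.

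Genes were classed by their midpoint. Surroundings were the windows up to 500 kb on both sides of it, and neighbouring genes were those with a midpoint within 500 kb. Ranks count protein-coding genes of the same class. Members and lists were chosen with earlier results of these data known, and no test was made. Named are the members, all other list genes, the genes with the most similar windows and the next genes that have a name. Details of MADS15 were added after its values were seen. Placement was tested on simulated data. Python 3.11.15, numpy 2.4.6, pandas 2.3.3 and matplotlib 3.10.9 were used.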

Additional observations from a re-analysis of the deposited data

How the results depend on the processing

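The class of each member was read under 10 other settings: either gene end, the class of most bases, shifts of 10 kb and 20 kb both ways, mixed classes joined to the earlier or the later stage, and segments under 50 kb joined to the longer neighbour. The classes of MADS62, zmm2, zmm31, zap1, zmm6 and MADS35 held under all 10, which only restates their positions. Each member lay along its whole length in a single-stage class, in a segment of 60 kb or more. Only the shifts could therefore change a class. They reached 20 kb, and the nearest boundary to any of these genes was 20.7 kb away, for MADS35. zmm16 became ESMS when moved by 20 kb towards lower coordinates, leaving 3 members in ES. zag2 became ESMS when moved by 10 kb or 20 kb towards higher coordinates, leaving 1 member in MS. With mixed classes joined to the later stage, LS held 5 of the 32 list genes in place of 2. Over all classified protein-coding genes, the classes joined there, MSLS and LS, held 4.22% and 4.86%. The other 57 of 60 counts per class stayed within 1.5 times the reported value. The distance to the nearest boundary moved by over 1.5 times in 1 of 16 cases, to 26.1 kb for zmm16 with mixed classes joined to the earlier stage. With 250 kb on both sides in place of 500 kb, genes per Mb around zmm2 fell to 4 from 12, and around zap1 to 20.0 from 33. With 1000 kb, genes around zmm6 rose to 22.5 per Mb from 14. Genes per Mb moved by over 1.5 times in those 3 of 16 cases. The share of a member's own class around it depended most on the range, and left the exact 95% binomial interval of its windows in 8 of 16 cases. With 250 kb it went to 78.4% from 44.6% for zmm2, to 35.3% from 17.8% for zap1, to 31.4% from 47.5% for zag2 and to 25.5% from 12.9% for zmm6. With 1000 kb it went to 79.6% from 100% for MADS62, to 28.4% from 10.9% for zmm16, to 6.47% from 12.9% for zmm6 and to 8.46% from 16.8% for MADS35. Neighbouring windows are not independent, so the interval serves only as a yardstick. Matching on the symbol only gave 0 list genes, since their symbols are locus identifiers, and was not run further. No paired analysis was possible because the map has no values per library, and no replicate could be left out for the same reason. The map gives no depth, so how firmly each window was assigned is unknown.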

Other observations

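Several other MADS-box genes lay at or near changes of class, and are described here after their values were seen. zmm19, the only protein-coding gene of a 100 kb MS segment on chromosome 4, had ESMS on the lower side and MSLS on the higher side. Of its 16 neighbouring genes 93.75% were in ES. By windows within 500 kb, ES took 39.6%, all on the lower side, MSLS 22.8%, MS 19.8% and LS 16.8%. zmm27 lay 2.88 kb from the edge of a 100 kb MS segment with ESMS on both sides, and 82.6% of its 23 neighbours were in ES. MADS47 was in a 40 kb MSLS segment between LS segments, with 6 neighbouring genes and none in ES. Far from any change of class was MADS70. This gene, at 951 bp the shortest gene of the 32, lay 742 kb from the end of a 3980 kb ES segment with 186 protein-coding genes, and all of its 46 neighbours were in ES.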
